A study of Mus musculus with 4 samples.

Results

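The cytosolic ribosomal protein genes were described in single endothelial cells sorted from mouse brain. They were chosen by name: a symbol starting with Rpl or Rps and a digit, or Rplp0, Rplp1, Rplp2 or Rpsa, without the Rps6k kinases and without pseudogenes marked "-ps". This gave 86 of 32285 genes, of which 43 encode proteins of the large subunit, 31 proteins of the small subunit and 3 proteins of the stalk, while 9 are paralogs or matches by name alone (Rpl3l, Rpl7l1, Rpl10l, Rpl22l1, Rpl36al, Rpl39l, Rps27l, Rps27rt and Rps19bp1). All 86 are protein-coding in GENCODE M21 (build GRCm38). They lie on 19 chromosomes, with Rpl10, Rpl36a, Rpl39 and Rps4x on X. C57BL6 mice had eaten a control diet, or a diet holding 1200 ppm of PLX5622, an inhibitor of the CSF1R receptor that microglia need, for 1 month. Cells positive for CD31, an endothelial surface protein, were sorted from brains without meninges, cerebellum and olfactory bulbs and sequenced with 10x Genomics 3′ kits. There were 2 libraries per diet, named here control diet 1 and 2 and PLX5622 diet 1 and 2. Per the labels, 3 mice contributed to the 2 libraries, which means that libraries and animals do not match 1 to 1. The p-values below measure only spread over these libraries. For the diets it is the spread between libraries, and for vessel segments and cell classes that of differences within a library. The stated purpose was to learn what loss of microglia does to the brain vasculature.

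Ribosomal proteins and ribosomal RNA together build the small subunit, which reads the mRNA, and the large subunit, which joins amino acids. The stalk is a flexible arm of the large subunit that recruits elongation factors. The mRNAs of these genes start with a C followed by a run of pyrimidines (C or T in DNA letters), the 5′ terminal oligopyrimidine tract, through which the TOR kinase and LARP1 control their translation as a group.

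Because the tract is the sequence the genes are known to share, the 30 bases around the RefSeq start site (GRCm38.p6) are shown for some of the members named below for vessel segments or mural cells. Each runs 5′ to 3′ on the gene's strand from 10 bases before the start through the first 20 transcribed bases, with its longest pyrimidine run in capitals.
Rpl38, chr11:114668570-114668599, plus strand: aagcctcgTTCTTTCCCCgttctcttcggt
Rpl12, chr2:32961702-32961731, plus strand: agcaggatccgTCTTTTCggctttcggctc
Rps2, chr17:24720053-24720082, plus strand: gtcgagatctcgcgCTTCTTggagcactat
Rps28, chr17:33824543-33824572, minus strand: cgcgtgcggTCTCgcgagagcgaaagtgag
Rpl10, chrX:74270806-74270835, plus strand: tacagtggaagataggccgCCTatataagg
Rpl22, chr4:152325716-152325745, plus strand: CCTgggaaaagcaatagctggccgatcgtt
Rpl22l1, chr3:28805498-28805527, plus strand: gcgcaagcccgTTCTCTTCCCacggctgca
RefSeq lists 2 starts for Rpl22, of which 1 is shown. Rpl38 carries the tract at its start and Rpl10 does not. Rpl28 and Rps15a, also named below, carry it and are not shown, so the sequences above do not give the share of members with a tract. RefSeq starts were found for 57 of the subunit and stalk genes, and 13 of them (22.8%) had a C followed by at least 4 more pyrimidines exactly at the start, searched on the gene's strand, against 2.85% of 9697 other genes tested in endothelial cells and 3.01% of all genes with a start. A run of at least 8 pyrimidines anywhere in the same 30 bases, which can overlap the tract, was found for 23 of 57 (40.4%) and for 13.6% of the other genes. Among the 9 paralogs and name matches, 1 had the tract. The start of a transcript can vary by several bases, so a missing match says only that these letters are not at that position.

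The libraries held 11186648, 38600208, 19044018 and 26949278 UMIs (counted RNA molecules), in the order control diet 1, control diet 2, PLX5622 diet 1, PLX5622 diet 2, which holds for every set of 4 values that follows. Barcodes were kept as cells from 1000 UMIs and 500 genes up, with no more than 10% of UMIs mitochondrial, and numbered 1696, 5509, 3989 and 3670, and pairs of libraries shared between 1 and 6 of their barcodes. Ribosomal protein genes took 8.53%, 10.2%, 9.79% and 10.3% of the UMIs of these cells. Control diet 1 had the lowest share, and it was also the library with the fewest cells. In barcodes under 100 UMIs, which hold free RNA, the genes took 10.5%, 10.0%, 9.86% and 11.1%, which was above the share of cells in control diet 1 and PLX5622 diet 2 and near it in the others. Excluded "-ps" pseudogenes took at most 0.00423% of all UMIs in any library. Cells were clustered without the ribosomal protein genes and the mitochondrial genes, so that no cluster was defined by the genes described, and clusters were named from marker genes. The 8 endothelial markers, among them Cldn5, Pecam1 and Cdh5, summed to between 22353 and 22902 CPM (the UMIs of a gene scaled to a total of 1000000 UMIs) in the endothelial-like cells, against 238.6, 234.2, 336.6 and 285.4 CPM for 9 pericyte markers. The 9 microglial markers summed to 27.9, 26.2, 24.0 and 26.9 CPM there, a level too low to show the depletion.

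In endothelial-like cells (1581, 5081, 3656 and 3341 cells) the share of UMIs in ribosomal protein genes was 8.69%, 10.4%, 10.1% and 10.7%. Genes of the large subunit took 4.51%, 5.38%, 5.24% and 5.54% of all UMIs, and genes of the small subunit took 3.75%, 4.52%, 4.40% and 4.68%. The ratio of large to small subunit UMIs stayed between 1.18 and 1.20 in the 4 libraries, so both subunits followed the same order of libraries. Stalk genes took between 0.337% and 0.416%, and the paralogs and name matches between 0.0907% and 0.104%. The 6 most counted members together held between 16.6% and 17.5% of the members' UMIs. Levels between genes are compared as CPM of UMIs, which count molecules at their 3′ end and are not divided by gene length.

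Rps29, a small zinc-binding protein of the small subunit, had the highest level in endothelial-like cells, at 3860.4, 4651, 4699.9 and 4715 CPM. Rpl38, on the surface of the large subunit and known from tail-short mice, followed at 2625, 3369, 3379 and 3444 CPM, and Rps27 at 2316, 2964, 2813 and 2877 CPM. Rpl37a and Rps21 had means of 2170.1 ± 260 and 2157 ± 265 CPM (SD, n = 4 libraries), and their order does not exceed that spread. In each of these 5 genes control diet 1 was below the other 3 libraries. In Rps29 and Rpl38 each PLX5622 library was above each control library, while in Rps27 the diets overlapped. Neither Rps29 nor Rpl38 was called between the diets.

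The paralogs lay below their partners in endothelial-like cells, by amounts that differed widely. Rpl22l1 measured 405 ± 24.1 CPM against 814 ± 75.4 CPM for Rpl22, Rpl36al measured 249.7 ± 24.0 against 626 ± 47.5 CPM for Rpl36a, and Rpl7l1 measured 54.4 ± 2.90 against 939 ± 78.7 CPM for Rpl7 (SD, n = 4). Rps27l measured 229 ± 14.1 and Rps27rt 22.3 ± 4.24 CPM against 2742 ± 291 for Rps27. Rpl39l, known from testis, held 149 UMIs in all endothelial-like cells and 1.71 ± 0.537 CPM against 1299.6 ± 100 for Rpl39, while Rpl3l held 1 UMI and Rpl10l none. The name match Rps19bp1, which encodes a protein that binds Rps19 and is no part of the ribosome, measured 27.9 ± 1.78 CPM. Ribosomal protein genes have many near-identical processed copies. Of the 86 members, 56 shared at least 1 stretch of 60 bases in the last 300 bases of a transcript with another gene and 36 shared over 50% of such stretches. All such stretches of Rpl10, Rpl29, Rpl36a and Rps27 were shared, and none of those of Rpl22, Rps20, Rpl12 or Rpsa. The sources used here do not say how reads that match several genes were counted, so levels of the first kind are uncertain.

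**Figure D1:**
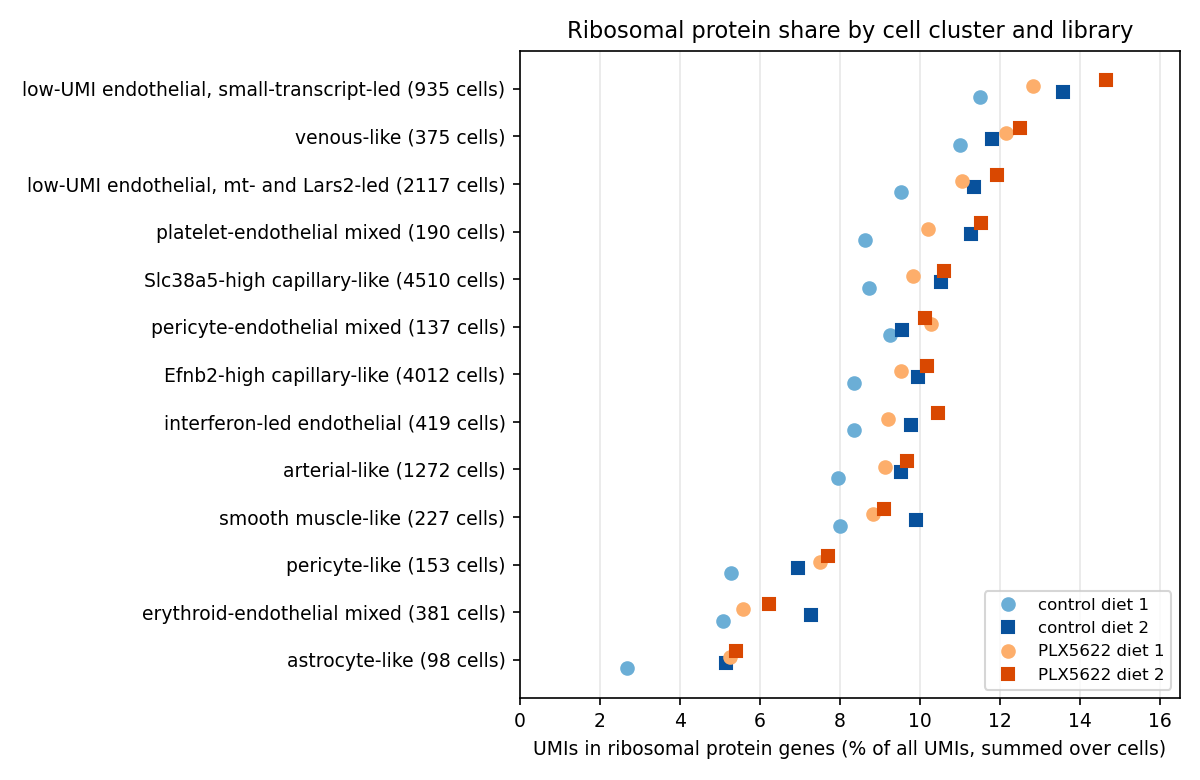
Share of UMIs in ribosomal protein genes (x axis, percent of all UMIs summed over the cells of a cluster) by cell cluster (y axis, with its number of cells) and library (points). Venous-like cells lie between 11.01% and 12.5%, to the right of the other named vessel segments, and pericyte-like cells between 5.27% and 7.70%.

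The share differed between vessel segments and mural cells, and control diet 1 was the lowest of the 4 libraries in each cluster plotted, as the plot of shares by cluster shows. Arterial-like cells had 7.94%, 9.54%, 9.13% and 9.69%, capillary-like cells 8.54%, 10.3%, 9.71% and 10.4%, and venous-like cells 11.01%, 11.8%, 12.1% and 12.5%. Within a library the venous-like share was above the capillary-like share by 2.13 ± 0.429 percentage points, and the arterial-like share was below it by 0.664 ± 0.0845 points (SD, n = 4). Pericyte-like cells had 5.27%, 6.95%, 7.50% and 7.70%, which is 3.13 ± 0.383 points under the endothelial-like cells of the same library. Smooth muscle-like cells had 7.996%, 9.89%, 8.82% and 9.11%. These directions were the same in each of the 4 libraries. Shares are descriptions and have no test, and the genes were tested 1 by 1 as follows.

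Relative to their other mRNAs, venous-like cells carried more of nearly all ribosomal protein mRNAs than capillary-like cells of the same library. Of 83 members tested, 77 were higher and 0 lower, against 9.9% of the 9741 genes tested that were higher (edgeR quasi-likelihood test with Benjamini-Hochberg adjustment over all genes and the library as a block, threshold 0.05, as in the tests that follow). The median log2 fold change of the members was 0.30 against 0.00 for all genes. By role, 42 of 43 large subunit genes, 31 of 31 small subunit genes and 3 of 3 stalk genes rose. CPM were higher in the venous-like cells in 4 of 4 libraries for 77 members and for 14.6% of all genes.

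Rps28, a small protein near the mRNA exit of the small subunit, rose from 1048, 1284, 1262 and 1375 CPM in capillary-like cells to 1609, 1745, 1854 and 1832 CPM in venous-like cells. The lowest venous-like library was above the highest capillary-like library. Its log2 fold change was 0.51 (SE 0.04, adjusted p 1.23e-14). Rpl10, which joins the large subunit last and is needed for the subunits to meet, had 611, 652, 658 and 709 CPM in capillary-like and 937, 828, 988 and 1022 CPM in venous-like cells (log2 0.52, SE 0.05, adjusted p 1.51e-13). Rps20, a protein of the small subunit head, rose from 1154, 1477, 1327 and 1489 to 1719, 1838, 1893 and 1994 CPM, without overlap (log2 0.46, SE 0.04, adjusted p 4.71e-13). Rpl36a rose by 0.45 on the log2 scale. The stalk genes Rplp0, Rplp1 and Rplp2 rose by 0.40, 0.30 and 0.28, and Rpsa, which is also known as a laminin receptor, by 0.37. The smallest called rises were those of Rpl27a (0.13), Rpl27 and Rpl38 (each 0.16), Rps25 and Rpl36al (each 0.19). Among the 6 members without a call were 5 of the 6 paralogs and name matches tested: Rpl22l1 (0.13, adjusted p 0.0965), Rps27l (0.15), Rps27rt (0.40, SE 0.17), Rpl7l1 (-0.01) and Rps19bp1 (-0.00). The other was Rpl41, which encodes the smallest ribosomal protein, at 1965, 2208, 2298 and 2041 CPM in capillary-like and 2099, 2132, 2443 and 2291 CPM in venous-like cells (adjusted p 0.164).

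**Figure D2:**
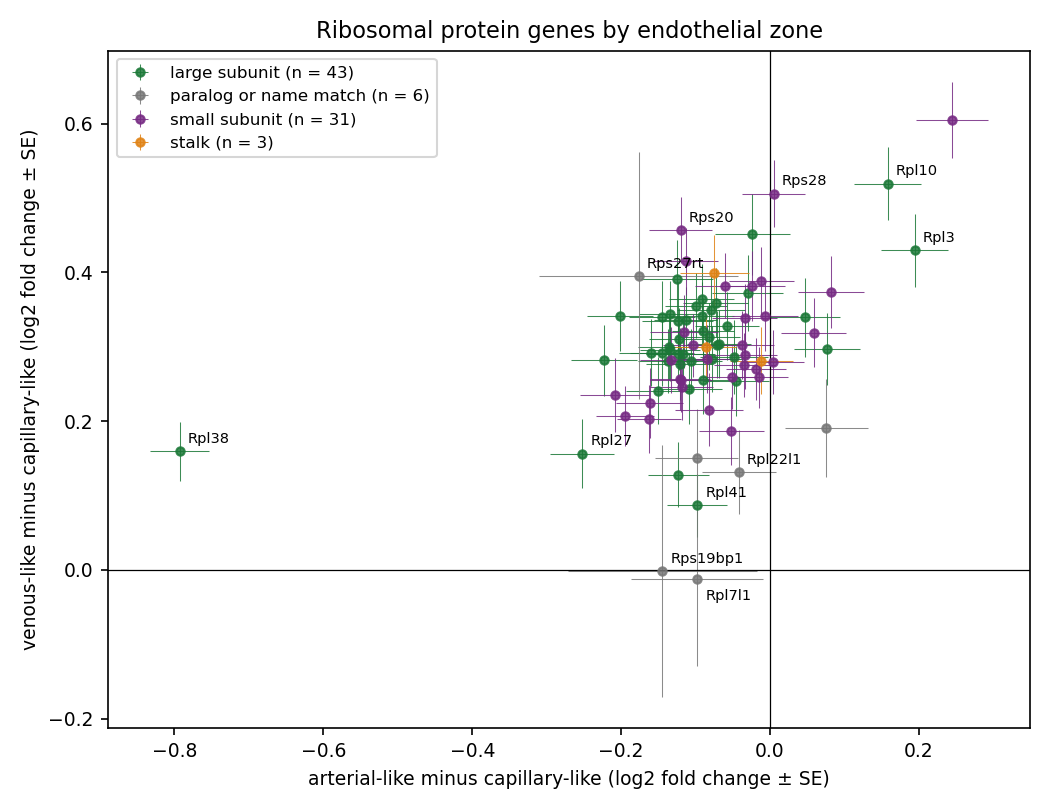
Log2 fold change of each ribosomal protein gene tested in arterial-like (x axis) and venous-like cells (y axis), both against capillary-like cells, with standard errors. Nearly all points lie above 0 on the y axis, Rps28 at 0.51, and Rpl38 stands alone on the left at -0.79.

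Venous-like cells held more UMIs per cell (medians 8684, 10624, 6160 and 8288.5) than capillary-like cells (5552.5, 5901, 4205 and 6220). Their mitochondrial share was between 3.73% and 3.94%, against 2.998% to 3.38%. Immediate early genes, which cell isolation is known to induce, were lower in 8 of 14 and higher in 2, and Malat1, a nuclear RNA, was lower (-0.14). The part of these in the difference was not tested. With every cell thinned to 1000 UMIs, each cell had equal weight. The mean share was then 8.65%, 10.5%, 9.88% and 10.6% in capillary-like cells and 11.3%, 12.1%, 12.5% and 12.9% in venous-like cells. Thinning leaves the share expected of a cell unchanged, so these means cannot decide the part of UMIs per cell. Among genes with a RefSeq start, 13 of 14 members with a tract at the start and 44 of 49 members without one were higher in venous-like cells. Of the other genes, 29 of 220 with the tract (13.2%) and 658 of 7471 without it (8.81%) were higher.

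Arterial-like cells differed less from capillary-like cells, with Rpl38 as an exception. Of 83 members, 3 were higher and 32 lower, against 14.6% and 13.4% of all genes, and the median was -0.09 against -0.01. Of the large subunit genes 21 fell and 2 rose, of the small subunit genes 11 fell and 1 rose, and none of the 3 stalk genes or 6 paralogs was called. The count of called members depended on the libraries: it was 17 without control diet 2, 17 without PLX5622 diet 1, 14 without PLX5622 diet 2 and 28 without control diet 1. It was 7 with cells thinned to 1000 UMIs and 53 without the low-count filter. These counts stand without the share of all genes called in the same setting. Rpl38 had 2669, 3456, 3368 and 3503 CPM in capillary-like cells and 1591, 2007, 1919.8 and 1988 CPM in arterial-like cells. Every arterial-like library was below every capillary-like library. Its log2 fold change was -0.79 (SE 0.04, adjusted p 6.92e-26), while the next largest falls were those of Rpl27 (-0.25), Rpl22 (-0.22), Rps26 (-0.21) and Rpl28 (-0.20). Rpl3 (0.19, adjusted p 0.000375), which lines the catalytic centre, and Rpl10 (0.16, adjusted p 0.00478) were among the members that rose, and both also rose in venous-like cells. Rpl3 had 578, 700.4, 591 and 699.9 CPM in capillary-like and 654, 802, 696 and 789.6 CPM in arterial-like cells, higher in each library, while the ranges over the libraries overlap. Immediate early genes were lower in 10 of 14 and higher in 1, and the nuclear RNAs Malat1 (0.22), Neat1 (0.17) and Kcnq1ot1 (0.41) were higher. Their part in these differences was not tested. Of the stretches of 60 bases at the 3′ end of Rpl38, 63.9% are shared with other genes, so its level includes an uncertain part.

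Arterial-like cells against venous-like cells gave 0 higher and 80 lower members of 83, against 13% of all genes lower, with a median of -0.39. The largest falls were those of Rpl38 (-0.95, SE 0.04), Rps20 (-0.58), Rps27rt (-0.57, SE 0.20), Rpl28 (-0.54) and Rps15a (-0.53), and the smallest called were those of Rpl22l1 (-0.17), Rpl41 (-0.18), Rpl5 (-0.22), Rpl3 and Rps25 (each -0.24). The exceptions were Rps19bp1, Rpl36al and Rpl7l1.

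Capillary-like cells formed clusters led by Slc38a5 and by Efnb2, genes high toward veins and toward arteries respectively. In a comparison chosen after seeing the data, 30 of 83 members were higher and 0 lower in the Slc38a5-high cluster, against 10.4% of all genes higher, with a median of 0.05. Without control diet 2 the count was 11, and the share of all genes called in that setting is not set beside it. Malat1 was lower in the Slc38a5-high cluster (-0.29, adjusted p 4.03e-23), 8 of 14 immediate early genes were higher and 2 lower, and the mitochondrial share was 3.14% to 3.52% against 2.84% to 3.15%. Their part was not tested. Rpl38 had 2419, 3064, 2922 and 3066 CPM in Efnb2-high and 2903, 3823, 3681 and 3759.6 CPM in Slc38a5-high cells (log2 0.30, SE 0.02, adjusted p 3.33e-20). Within each library Rpl38 thus increased from arterial-like through Efnb2-high to Slc38a5-high cells. Venous-like cells and Slc38a5-high cells differed in mean by less than the spread between libraries for this gene, at 3597 ± 362 and 3542 ± 430 CPM (SD, n = 4). Called rises after Rpl38 were those of Rpl29 (0.13), Rps15, Rpl31 and Rpl22 (each 0.12), and the smallest were those of Rps14, Rps12, Rpl23, Rpl11 and Rpl34, each of 0.06 or 0.07.

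**Figure D3:**
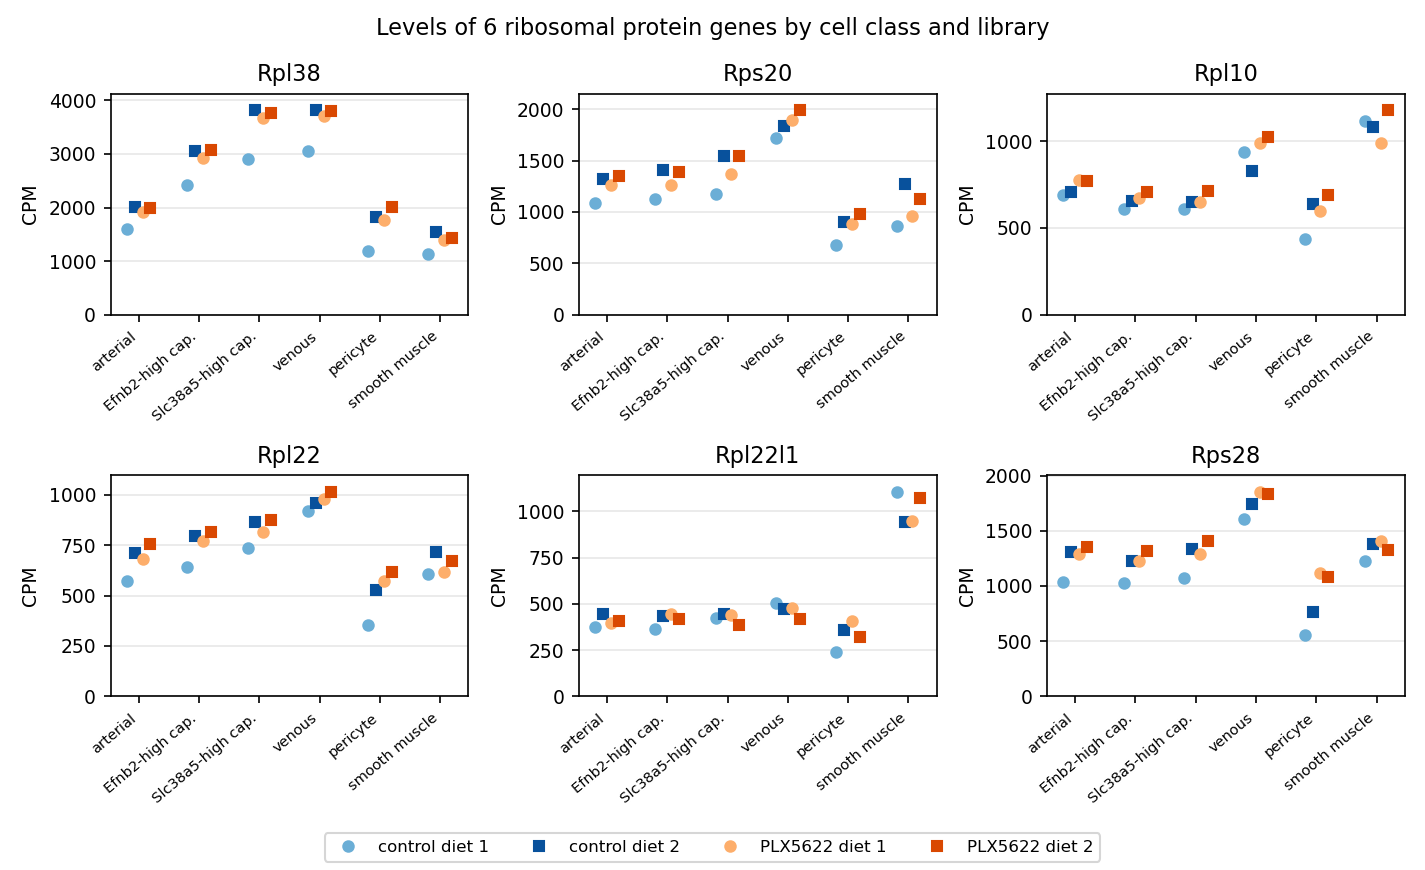
Level of 6 ribosomal protein genes (y axis, CPM from 0) in each class of cells (x axis, -like cells) and library (points). Rpl38 climbs from about 1876 CPM in arterial-like to 3597 CPM in venous-like cells in the mean of the libraries, and Rpl22l1 is highest in smooth muscle-like cells.

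Pericytes, the mural cells of capillaries, were few after the CD31 sort (12, 50, 52 and 39 cells). Since control diet 1 had under 20 cells, this test was added after seeing the data with a minimum of 10. Pericyte-like cells carried less of most ribosomal protein mRNAs than endothelial-like cells: 0 of 82 members were higher and 74 lower, against 19.5% of all genes lower, with a median of -0.51 against 0.02. By role, 41 of 43 large subunit genes, 30 of 31 small subunit genes and 3 of 3 stalk genes fell. Rpl38 fell most, to 1188, 1826, 1768 and 2012 CPM, from 2625, 3369, 3379 and 3444 CPM (log2 -0.92, SE 0.09, adjusted p 5.03e-14). Rps12 had 731, 935, 1011 and 1123 CPM in pericyte-like and 1359.9, 1658, 1599.5 and 1738 CPM in endothelial-like cells (log2 -0.74, SE 0.10, adjusted p 1.13e-09). In both genes no pericyte-like library reached the lowest endothelial-like library. Rps20 (-0.72), Rpl27a (-0.70) and Rps14 (-0.70) followed. Rplp0, the base of the stalk, had 343, 457, 459.7 and 501 CPM against 563, 656, 621 and 691 CPM (log2 -0.51, adjusted p 0.000113). The smallest called falls were those of Rpl24 (-0.24), Rpl4 (-0.29), Rpl7a (-0.31) and Rps16 (-0.35). With cells thinned to 1000 UMIs 47 members were lower and 0 higher, without the share of all genes called in that setting beside them. The values of Rpl4 and Rpl7a turned to 0.010 and 0.15 with thinning. Rpsa was not called, at 617, 740.3, 800.3 and 618 CPM against 644, 718, 716 and 783 CPM (log2 -0.05, SE 0.11, adjusted p 0.752). The other members without a call were Rpl10 (-0.21), Rpl23a (-0.24) and the paralogs and name match Rpl22l1 (-0.27), Rpl36al (-0.28), Rps27l (-0.21), Rpl7l1 (0.25) and Rps19bp1 (0.35).

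Median UMIs per pericyte-like cell were 4544.5, 4928, 2576.5 and 5010, under those of endothelial-like cells (5069, 5471, 3774 and 5769). Thinned to 1000 UMIs, and so with equal weight for each cell, pericyte-like cells had a mean share of 4.84%, 5.49%, 6.54% and 6.88%. Endothelial-like cells had 9.10%, 10.8%, 10.6% and 11.3%. As thinning leaves the share expected of a cell unchanged, these means cannot decide the part of UMIs per cell. The 8 endothelial markers summed to 8934, 10520.2, 7225 and 8925 CPM in the pericyte-like cells, so these cells carried endothelial RNA too. Haemoglobin took 3.16% of their UMIs in PLX5622 diet 2 and at most 0.0238% in the other libraries. All 14 immediate early genes were lower in them. Malat1 was higher (log2 0.72, adjusted p 2.59e-13), Neat1 was lower (-0.85), and the mitochondrial share was 3.54%, 4.34%, 4.38% and 4.14% against 3.06%, 3.34%, 3.32% and 3.53%. The parts of endothelial RNA, haemoglobin, immediate early genes, nuclear RNA and mitochondrial share in the difference were not tested. A cluster of 137 cells with markers of both pericytes and endothelial cells had shares of 9.25%, 9.55%, 10.3% and 10.1%. There 0 of 82 members were higher and 1 was lower, against 0.526% of all genes lower. The gene was Rpl22l1, at 282, 292, 262 and 346 CPM against 381, 431, 419 and 388 CPM (log2 -0.45, SE 0.12, adjusted p 0.0146), and it was not called without control diet 2 or without PLX5622 diet 1. Rpl11 (-0.20), Rps27l (0.24), Rpl32 (-0.18) and Rps2 (-0.17) had the next smallest p-values, with adjusted p of at least 0.443.

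Smooth muscle-like cells, the mural cells of arteries, differed from endothelial-like cells in both directions in the main test. Their share of UMIs was lower by 1.03 ± 0.524 percentage points within a library (SD, n = 4). Of 83 members, 15 were higher and 23 lower, against 26.9% and 28.5% of all genes, with a median of -0.05 for members and for all genes. The split depends on the scaling: it was 8 higher and 33 lower with library totals, 18 and 19 with factors from the other genes and 27 and 12 with DESeq2 size factors. Restricted to cells with at most 5% mitochondrial UMIs it was 2 and 53. The share of all genes called in these settings is not set beside the counts. Smooth muscle-like cells had 6.37%, 5.69%, 6.53% and 6.38% mitochondrial UMIs, so that setting removes many of them. The 8 endothelial markers summed to 624, 2801, 1402 and 798 CPM in these cells, and Malat1 was higher (0.71). Their part in the differences was not tested.

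Rpl22l1 rose most in smooth muscle-like cells, to 1106, 942, 949 and 1069.8 CPM from 381, 431, 419 and 388 CPM in endothelial-like cells. Every smooth muscle-like library was above every endothelial-like library (log2 1.43, SE 0.08, adjusted p 3.73e-20). Its partner Rpl22, an RNA-binding protein that is known to repress Rpl22l1, had 606, 716, 618 and 671 CPM against 705, 838, 833 and 879 CPM (log2 -0.21, SE 0.08, adjusted p 0.0181). Rpl22l1 was thus above Rpl22 in each smooth muscle-like library and below it in each endothelial-like library. Of its 3′ stretches 61.8% are shared with unnamed copies, and none of those of Rpl22. Rpl10 rose to 1115, 1084, 987 and 1180.1 CPM (log2 0.77, SE 0.08, adjusted p 7.5e-12) from 641, 668, 701 and 751 CPM. Rps2, at the entry of the mRNA channel, rose to 1065, 1126, 923 and 999.8 CPM (log2 0.61, SE 0.08, adjusted p 2.8e-09) from 680.5, 672, 742 and 825 CPM. Rpl21 and Rpl12 rose by 0.61 and 0.49. Rpl38 fell to 1141, 1542, 1397 and 1432 CPM (log2 -1.11, SE 0.09, adjusted p 2.25e-14), the lowest level of this gene among the classes plotted. Rps27rt fell to 5.88, 8.44, 7.19 and 12.3 CPM from 21.3, 21.3, 28.3 and 18.4 CPM (log2 -1.22, SE 0.31), and as 88.0% of its 3′ stretches are shared, mostly with Rps27, that level is uncertain. Rps14 (-0.46) and Rpl11 (-0.39) were also lower. Rpsa (0.29) and Rplp0 (0.33) rose, and Rplp1 (-0.10) and Rplp2 (0.08) were not called.

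Endothelial-like cells mixed with erythroid RNA had shares of 5.08%, 7.28%, 5.57% and 6.21%. Haemoglobin took 37.0%, 29.8%, 43.2% and 41.3% of their UMIs, and with haemoglobin left out of the total the shares were 8.07%, 10.4%, 9.81% and 10.6%, close to those of the endothelial-like cells of each library. With TMM factors 0 of 83 members were called, against 0.898% of all genes (1 member and 529 genes had an unadjusted p under 0.05), and with library totals, which carry the haemoglobin, all 83 were lower. Endothelial-like cells also held 2 clusters of few UMIs per cell that could not be placed along the vessel. The cluster led by small transcripts such as Tmsb10, Mif and Ndufb2 had the highest shares of all, 11.5%, 13.6%, 12.8% and 14.7%. There 81 of 83 members were higher than in capillary-like cells, against 10.1% of all genes, with a median of 0.51. In the cluster led by mitochondrial genes and Lars2, with shares of 9.53%, 11.4%, 11.1% and 11.9%, 61 were higher and 2 lower, against 9.64% and 12.4% of all genes. All 14 immediate early genes were lower there, among them Egr1 (-3.59), Atf3 (-3.30) and Fos (-2.63), while in the cluster led by small transcripts 4 were higher and 3 lower. The nuclear RNAs Neat1 (-0.91 and -0.95), Kcnq1ot1 (-0.35 and -1.17) and Malat1 (-0.27 and -0.39) were lower in the mitochondrial and the small-transcript cluster respectively. The part of these was not tested. Both comparisons were chosen after seeing the data.

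**Figure D4:**
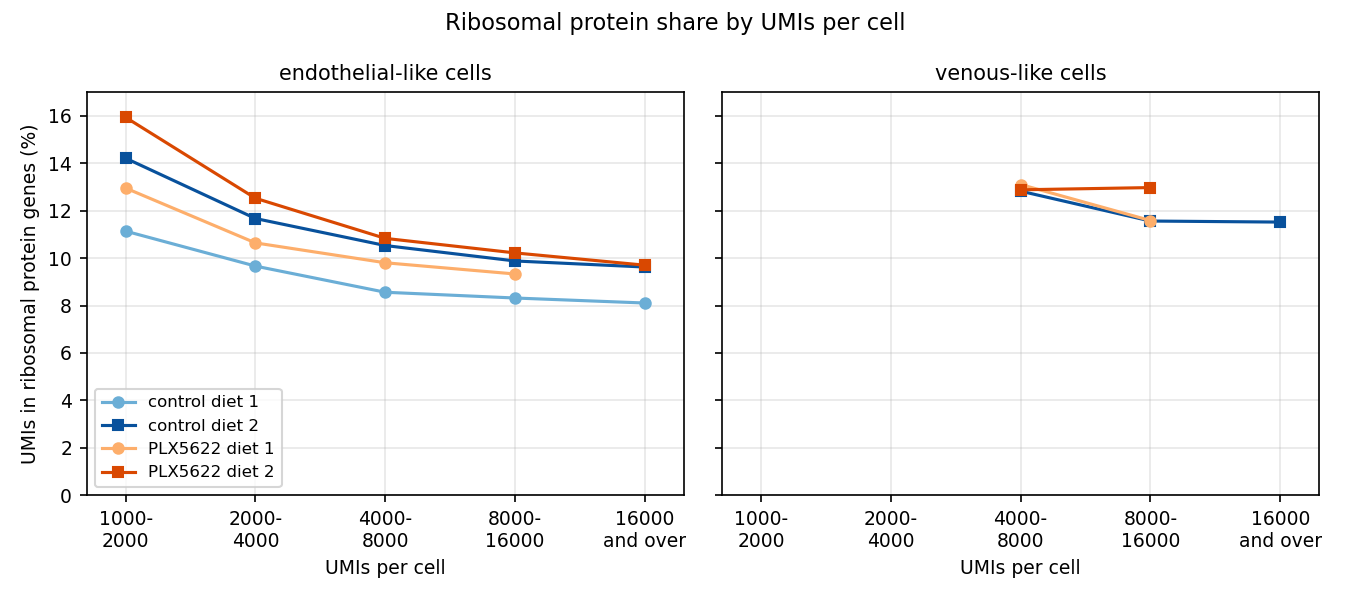
Share of UMIs in ribosomal protein genes (y axis, percent) by the UMIs a cell has (x axis, bins), for endothelial-like cells (left) and venous-like cells (right), with lines joining the bins of a library. Bins under 20 cells are left out. The share falls from the first bin to the last in each library on the left, and control diet 1 is the lowest in every bin.

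Over all endothelial-like cells, the low-UMI clusters among them, the share fell with the UMIs of a cell. Endothelial-like cells with 1000 to 2000 UMIs had 11.1%, 14.2%, 12.9% and 15.9%, and those with 8000 to 16000 UMIs had 8.32%, 9.88%, 9.33% and 10.2%. In each bin control diet 1 was the lowest and PLX5622 diet 2 the highest. In the bin of 4000 to 8000 UMIs, venous-like cells of control diet 2, PLX5622 diet 1 and PLX5622 diet 2 had 12.8%, 13.1% and 12.9%, against 10.5%, 9.68% and 10.7% in capillary-like cells, and control diet 1 had 7 venous-like cells in it. Venous-like cells were thus above capillary-like cells at matched UMIs in the 3 libraries that could be compared.

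No ribosomal protein gene was called between the diets in endothelial-like cells. The shares of 8.69% and 10.4% in the controls and of 10.1% and 10.7% in the PLX5622 libraries gave means of 9.54% ± 1.20 and 10.4% ± 0.435 (SD, n = 2), a difference of 0.890 percentage points that is below the spread between the controls. Against control diet 2 alone it was 0.0422 points. Of 84 members 0 were called, against 1.16% of 12799 genes tested (98 higher, 50 lower). At an unadjusted p under 0.05 there were 2 members and 1356 genes. DESeq2 and limma-voom also called 0 members. The median was 0.17 against 0.00 for all genes, and 83 of 84 members had a positive value.

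The size of these values depended on which control library was used. In 81 of 84 members control diet 1 was the lowest of the 4 libraries, against 18.6% of all genes. In 22 of 84 both PLX5622 libraries were above both controls, against 15% of all genes, and in 60 of 84 PLX5622 diet 1 was below control diet 2, against 50.3%. Without control diet 1 the median was 0.00, and without control diet 2 it was 0.35, where some members were called. Each of these fits leaves 1 control library, so which control departs cannot be told. Rps2 had 680.5 and 672 CPM in the controls and 742 and 825 CPM with PLX5622 (log2 0.26, SE 0.12, adjusted p 0.470). The diets do not overlap in this gene, but the difference does not pass the test. Rpl35 (0.25), Rps19bp1 (0.19) and Rpl7l1 (0.17) were also among the members with the smallest p. Rplp0, Rplp1, Rplp2 and Rpsa had values of 0.15, 0.20, 0.18 and 0.18, each with an adjusted p of at least 0.677.

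**Figure D5:**
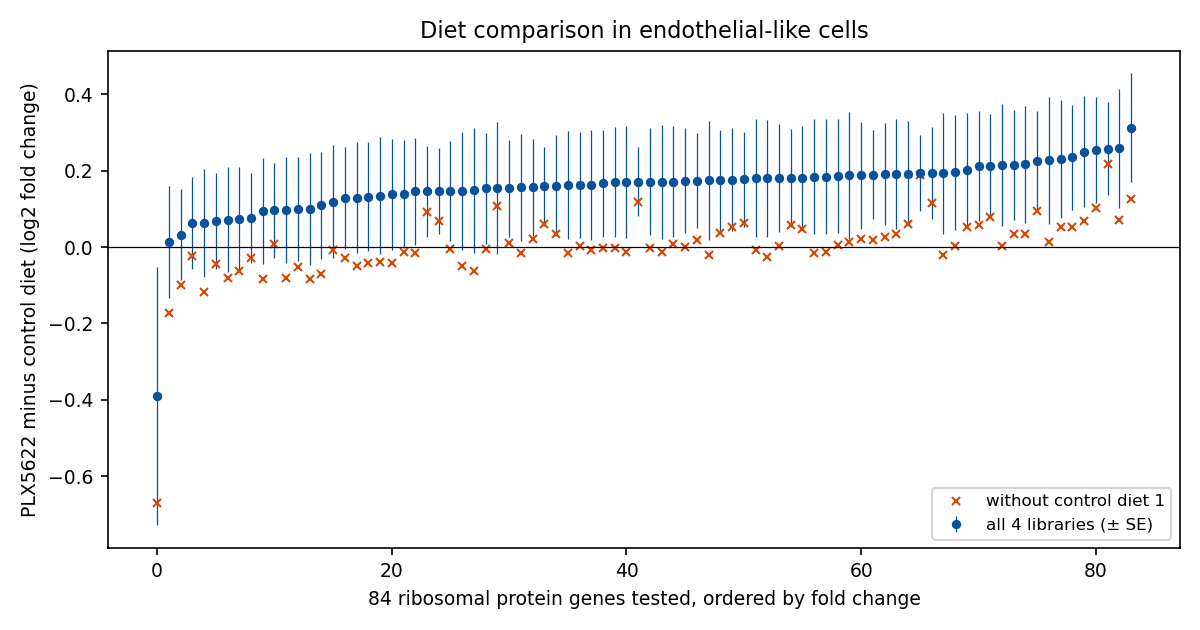
Log2 fold change between PLX5622 and control diet in endothelial-like cells (y axis) of 84 ribosomal protein genes in order of that value (x axis), with all 4 libraries (points, bars are standard errors) and without control diet 1 (crosses). The points lie around 0.17 and the crosses around 0.00.

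Mitochondrial shares in endothelial-like cells were 3.06%, 3.34%, 3.32% and 3.53%, and Malat1 had 31590, 33190, 35696 and 36042 CPM. The cluster led by small transcripts made up 6.39%, 6.04%, 10.6% and 4.19% of the endothelial-like cells. The cluster led by mitochondrial genes and Lars2 made up 14.2%, 13.1%, 17.3% and 17.8%, and immediate early genes took 5.05%, 5.14%, 4.69% and 4.13% of UMIs, neither with overlap between the diets. Control diet 1 was the lowest library in mitochondrial share and in Malat1 as well. The part of these in the order of libraries was not tested.

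By segment and class, 0 members were called between the diets in arterial-like cells (83 tested, against 0.199% of all genes), capillary-like cells (84, 1.21%), venous-like cells (83, 0.41%), smooth muscle-like cells (82, 0%) and erythroid-mixed cells (83, 0.624%). At an unadjusted p under 0.05 there were 0, 0, 3, 0 and 4 members, and 569, 1222, 588, 291 and 553 genes, respectively. DESeq2 called 0 members in each. Without control diet 2, which leaves 1 control library, there were calls in arterial-like, capillary-like and venous-like cells. Their counts are not given, as that fit has 1 control. The interaction of segment and diet called 0 of 83 members for arterial-like cells (0.226% of all genes) and 0 of 83 for venous-like cells (0.205%), each against capillary-like cells, with 1 and 0 members at an unadjusted p under 0.05.

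Ribosomal genes outside the naming rule went the same way as the members. Fau, which encodes a ribosomal protein fused to a ubiquitin-like protein, and Rack1, a scaffold on the small subunit, were higher in venous-like than in capillary-like cells, with log2 fold changes of 0.17 and 0.32. In pericyte-like cells both were lower, at -0.60 and -0.61. Translation elongation factors and their partners were higher in venous-like cells in 6 of 11 and lower in 0, with Eef1a1 at 0.44, Eef2 at 0.32, Eef1b2 at 0.29 and Eef1g at 0.26. In pericyte-like cells 4 of 9 were lower, among them Eef1b2 (-0.77) and Tpt1 (-0.61). Initiation factors gave 3 higher and 1 lower of 36 in venous-like cells (Eif3e 0.41, Eif4b 0.30 and Eif3f 0.23 higher, and Eif1 -0.19) and 2 higher and 6 lower of 34 in pericyte-like cells. Genes for ribosome assembly were called in 0 of 31 in venous-like cells and 0 of 16 in pericyte-like cells. TOR pathway genes gave 1 higher (Ddit4, 0.51) and 1 lower (Rheb, -0.21) of 15 in venous-like cells and 1 higher (Eif4ebp2, 1.76, adjusted p 5.26e-18) and 0 lower of 9 in pericyte-like cells. Mitochondrial ribosomal protein genes, which build a separate ribosome, gave 4 higher and 1 lower of 78 in venous-like cells and 2 and 2 of 58 in pericyte-like cells. Over all genes, 9.9% were higher in venous-like and 19.5% lower in pericyte-like cells, so the counts of the initiation, assembly, TOR and mitochondrial lists in those directions are near or under the background. None of these lists had a gene called between the diets in endothelial-like cells.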

How the data were processed

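Single-cell libraries of 10x Genomics 3′ chemistry were analysed from CD31-sorted mouse brain cells, 2 on a control diet and 2 on a PLX5622 diet. The deposited matrices hold whole-number UMI counts of each gene in every barcode, not normalized, per the file headers. The file headers name Cell Ranger 4, while the submitters' processing notes name Cell Ranger 6.0.1, Seurat 4.0 and the builds mm10 and mm39. The build behind the counts was not given in the sources used here, so the coordinates printed are those of RefSeq (GRCm38.p6). GENCODE M21, matched by gene identifier, served for gene types and transcript ends.

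Cells with at least 1000 UMIs, 500 genes and at most 10% mitochondrial UMIs were kept. They were clustered without ribosomal protein and mitochondrial genes (2000 variable genes, 30 principal components, 15 neighbours, Leiden resolution 0.5, igraph 0.11.9) and named "-like" from markers. No doublet caller was run, and clusters with markers of more than 1 class were kept apart as mixed. Cells are not replicates, so their counts were added up within each library and class, and CPM are relative to that sum. Classes needed 20 cells in each library, or 10 in the added model with pericytes. Sums were tested with edgeR 4.0.16 quasi-likelihood (R 4.3.3, TMM, default low-count filter, robust, two-sided, Benjamini-Hochberg over all genes at 0.05). Comparisons of segments and classes had the library as a block, and comparisons of diets used 2 libraries against 2. Members that did not pass the low-count filter were Rpl3l and Rpl10l everywhere, and Rps27rt in the pericyte-like, mixed pericyte and smooth muscle-like tests (the last by diet only). Rpl39l passed it only in the diet tests of all endothelial-like and of capillary-like cells.

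DESeq2 1.42.0, limma-voom (limma 3.58.1), other scalings and filters, thinning each cell to 1000 UMIs and leaving out each library were the alternatives. On simulated counts for the diet comparison (12646 genes) the test called 13.4% of genes changed 1.25-fold, 65.2% of those changed 1.5-fold and 81.25% of those changed 2-fold. For the segments (9586 genes) these were 33.3%, 76.9% and 97.0%. Named for each comparison were the 5 called members with the largest and the 5 with the smallest fold change (if under 5 were called, the 5 with the smallest p), the 6 highest members, the paralogs with their partners, the stalk genes, Rpsa, Rps19bp1, Fau and Rack1. Some genes that this rule names are not reported here. Rps28, Rpl10 and Rpl3 were given outside that rule in some comparisons, after their values were seen. Members and lists were chosen with earlier results of these data known.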

Additional observations from a re-analysis of the deposited data

How the results depend on the processing

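The counts of members in this paragraph stand without the share of all genes called in the same setting. They therefore do not show whether members moved apart from other genes. The count of members higher in venous-like cells lay between 66 and 78 under every alternative. Members called between arterial-like and capillary-like cells numbered 53 without the low-count filter and 7 with cells thinned to 1000 UMIs, and 14 to 28 with 1 library left out. Leaving out 1 library gave 0 to 7 members called between the diets in endothelial-like cells, 0 to 1 in arterial-like, 0 to 10 in capillary-like and 0 to 4 in venous-like cells. It gave 11 to 32 between the capillary-like clusters and 0 to 1 in the pericyte-endothelial mixed cells. In erythroid-mixed cells library totals called 83 members and moved the median of all genes to -0.73. In pericyte-like cells thinning called 47 members and turned Rpl4 (0.010) and Rpl7a (0.15), and their share as a median over cells was -4.12 percentage points from that of endothelial-like cells. For other causes than the construction of the alternative, the cause was not tested. Of 50 named member and comparison pairs, 27 kept direction and call in every setting. These 50 are a part of the pairs named and do not cover every comparison.

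With the replicate number as a block, 0 members were called in each diet comparison, while the counts over all genes in endothelial-like cells were 236 higher and 152 lower against 98 and 50. These were 104 and 88 with library totals, 223 and 128 without the low-count filter, 156 and 107 without control diet 1, and 60 and 20 with equal weight to the vessel segments. The labels give the libraries only a number, and deviations of same-numbered libraries correlated at 0.18 over genes, so the number is no pairing by design. Precision is limited by 2 libraries per diet and by few cells in some classes, such as 12 pericyte-like cells in control diet 1.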
